A study of Mus musculus with 15 samples.

Results

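The genes described here code for the structures that hold intestinal epithelial cells to each other, to the basement membrane and to their own actin brush border. Members were chosen by name alone from the deposited table, by the symbol prefixes of cadherins, protocadherin-type cadherins, claudins, occludin, TJP and MARVEL-domain proteins, catenins, desmogleins, desmocollins, plakophilins, keratins, integrins, laminins, actinins and myosins, together with Patj, Epcam, Vil1, the Eps8 family, Espn, Ezr, Pls1 and Ush1c. Of the 4178 genes listed, 67 matched, and no actinin was among them. The name rule was set with earlier results of these data known. Several well-known junction genes, such as Cldn3, Cldn7, Tjp1, Krt18, Itgb1 and Dsp, are not analysed here.

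The study measured gene expression by bulk RNA-seq in the ileum of adult germ-free C57BL/6 mice, with 1 library from each of 15 mice in 3 groups of 5. All mice were raised without microbes. The PBS group received 200 µl of sterile buffer by gavage and stayed germ-free, the LGG group received Lacticaseibacillus rhamnosus GG, a lactobacillus used as a probiotic, and the RG group received Ruminococcus gnavus, a mucus-degrading gut commensal. Tissue was taken 21 days later, and colonization was checked by PCR on fecal DNA. Each group thus models the gut with 1 bacterial species or none. The sources used here give no sex, cage, batch or sequencing run, and differences between cages or batches cannot be told apart from the groups. The deposited column label of RG mouse 5 lacks a lane tag that the other labels carry, and that of PBS mouse 1 carries an extra suffix. What these label differences mean is not stated. Libraries were made from whole tissue, so fewer cells of a type and less RNA per cell cannot be told apart.

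Epithelial cells are joined near the lumen by tight junctions, which set what passes between cells, by adherens junctions just beneath, where E-cadherin binds its neighbour outside the cell and catenins inside it, and by desmosomes, which are tied to keratin filaments. On the luminal face of the absorptive cell stand the microvilli of the brush border, each a bundle of actin filaments held by villin, plastin and espin. Neighbouring microvilli are linked at their tips by the protocadherins Cdhr2 and Cdhr5, which are anchored inside the cell by harmonin (Ush1c), Anks4b and myosin 7B. At the base of the cell, integrins grip laminins of the basement membrane.

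The members took 0.478 to 0.770% of all transcripts in the PBS libraries, 0.795 to 1.17% in the RG libraries and 2.20 to 2.72% in the LGG libraries. These ranges did not overlap. Values are TPM, a unit that scales reads by transcript length and by the library's total, so that levels compare between genes per length. A gene was tested when it reached 1 TPM in at least 5 libraries, which 3530 listed genes and 55 of the 67 members did. Differences are in log2 units after adding 1 TPM to each value and carry their standard error (SE); a gene was called when the adjusted p from limma, by the Benjamini-Hochberg method over all tested genes, was under 0.05.

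In LGG mice 45 of the 55 tested members were higher than in PBS mice, 2 were lower (Itgb3bp and Itgb1bp1) and 8 were not called. Of all tested genes 54.7% were called higher and 16.5% lower in this comparison, and the median difference was 1.66 over the members and 1.17 over all genes. The LGG and PBS mice did not overlap for 43 members that were higher and 2 that were lower, against 53.0% and 14.9% of all tested genes. In RG mice 27 of the 55 were higher than in PBS mice, none was lower and 28 were not called. The share of all tested genes called higher was 22.8%, the share called lower was 4.08%, and the median difference was 0.53 over the members and 0.38 over all genes. The unadjusted p was under 0.05 for 37 members, all of them higher, and for 1758 of the 3530 genes tested. For 17 members every RG mouse was above every PBS mouse, against 13.0% of all tested genes, and for none was every RG mouse below, against 2.72%.

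Between the colonized groups, 45 of the 55 members were lower in RG than in LGG mice and 1, Itgb3bp, was higher. Of all tested genes 53.5% were lower and 8.19% higher in that comparison, with a median of -1.17 over the members and -0.72 over all genes. The groups did not overlap for 39 lower members and for Itgb3bp, against 36.4% and 4.08% of all tested genes. The RG and LGG comparisons share the PBS mice, and the third comparison reuses both colonized groups.

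**Figure D1:**
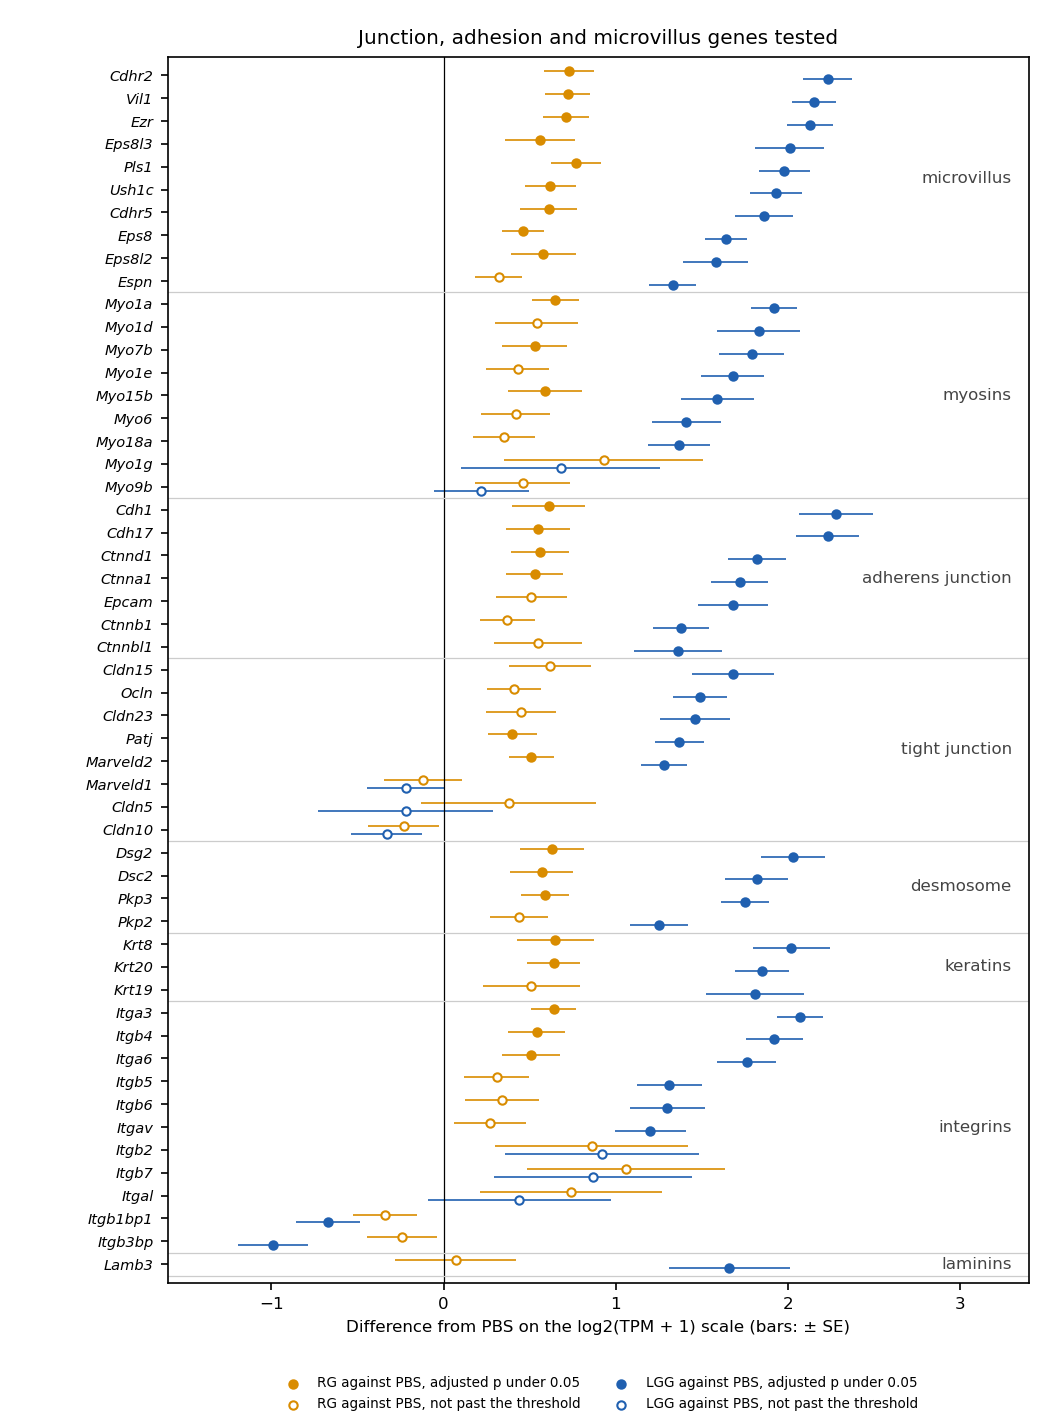
Difference from PBS on the log2(TPM + 1) scale for 53 of the 55 tested members, grouped by role, in RG mice (orange) and LGG mice (blue), 5 mice a group. Bars are ± SE, and filled points passed an adjusted p under 0.05 by limma. The LGG points of the microvillus genes lie between 1.33 and 2.23 and the RG points between 0.32 and 0.77, while Itgb3bp and Itgb1bp1 lie below 0 in LGG mice.

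These counts depended on how libraries were scaled to each other. Dividing each library by a median-of-ratios factor brought the median of all genes from 1.17 to 0.24 in LGG against PBS and from 0.38 to 0.04 in RG against PBS. Relative to that shift the members still stood higher in LGG mice, with 40 called higher and 6 lower and a median of 0.65. Of all tested genes 33.4% were then called higher and 39.8% lower. In RG mice no member was then called higher and 1 (Itgb1bp1) was called lower, with 7 members higher and 4 lower at an unadjusted p under 0.05. Calls over all tested genes were then 1.27% higher and 18.2% lower, and the unadjusted p of 1139 of the 3530 genes was under 0.05. With upper-quartile scaling 44 members were higher and 5 lower in LGG mice, and 7 were higher and 1 lower in RG mice. The shares of all tested genes were then 40.8% higher and 39.3% lower in LGG mice, and 3.8% higher and 13.3% lower in RG mice.

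The counts by role group below stand beside the shares of all tested genes. In LGG mice 54.7% were called higher and 16.5% lower, and in RG mice 22.8% and 4.08%. Under median-of-ratios scaling these shares were 33.4% and 39.8% in LGG mice and 1.27% and 18.2% in RG mice. For 53.0% of all tested genes every LGG mouse was above every PBS mouse. The microvillus genes gave the largest set of calls. All 10 were higher in LGG than in PBS mice with no overlap of the groups, by 1.33 to 2.23, and 9 of the 10 were higher in RG than in PBS mice, by 0.46 to 0.77. Under median-of-ratios scaling all 10 were still called higher in LGG mice, and in RG mice 9 stayed above 0 with none called. Vil1 (chr1:74409376-74435559, GRCm38) codes for villin, which bundles and severs microvillar actin. It stood at 331, 324, 268, 334 and 371 TPM in PBS mice 1 to 5, at 466, 519, 535, 486 and 700 TPM in RG mice and at 1387, 1490, 1443, 1479 and 1430 TPM in LGG mice. The 3 groups did not overlap, the LGG mice were close together, and RG mouse 5 was the highest of its group. The difference was 2.15 (SE 0.128, adjusted p = 1.55e-08 by limma) in LGG mice and 0.72 (SE 0.128, adjusted p = 0.0115) in RG mice.

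Cdhr2, the larger of the protocadherins at microvillus tips, stood at 172, 223, 137, 162 and 194 TPM in PBS mice, 277, 310, 332, 231 and 317 TPM in RG mice and 770, 832, 885, 899 and 755 TPM in LGG mice. Again no RG mouse reached down to the PBS mice or up to the LGG mice. It was higher by 2.23 (SE 0.144, limma adjusted p = 1.58e-08) in LGG mice and by 0.73 (SE 0.144, adjusted p = 0.0137) in RG mice. Its partner Cdhr5 stood at 328, 447, 264, 362 and 409 TPM in PBS mice, 551, 627, 682, 412 and 491 TPM in RG mice and 1149, 1189, 1372, 1556 and 1238 TPM in LGG mice. Here RG mouse 4 lay within the PBS range, and the RG difference of 0.61 had an adjusted p of 0.0274 by limma.

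Ush1c codes for harmonin, the scaffold beneath these protocadherins. It stood at 34.1, 33.5, 26.4, 34.0 and 37.6 TPM in PBS mice, 46.1, 59.5, 59.3, 39.0 and 54.8 TPM in RG mice and 106, 123, 127, 158 and 132 TPM in LGG mice. All 3 groups were apart. The difference was 1.93 in LGG mice and 0.62 in RG mice, each with an SE of 0.149 (limma adjusted p = 4.9e-08 and 0.0229).

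Among the actin bundlers, Pls1 (plastin 1) had the largest RG difference of the microvillus genes, 0.77 (SE 0.146, adjusted p = 0.0129 by limma), from 213 TPM in PBS mice on average to 363 TPM in RG mice, and stood at 835 TPM in LGG mice. Espn (espin, the third bundler) had the smallest differences, 1.33 in LGG mice and 0.32 in RG mice, where the adjusted p by limma was 0.0757. The ratio of Espn to Vil1 within a library was 0.125 to 0.15 in PBS mice, 0.0640 to 0.131 in RG mice and 0.0719 to 0.0830 in LGG mice. The LGG mice lay below all PBS mice, while the RG mice spanned both ranges, with RG mouse 5 the lowest of all. Ezr (ezrin, which ties the membrane to actin) was higher by 2.13 in LGG mice and 0.71 in RG mice. Eps8 codes for an actin-capping and bundling protein at microvillus tips, and Eps8l2 and Eps8l3 are of the same family. These genes were higher by 1.64, 1.58 and 2.01 in LGG mice and by 0.46, 0.58 and 0.56 in RG mice.

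**Figure D2:**
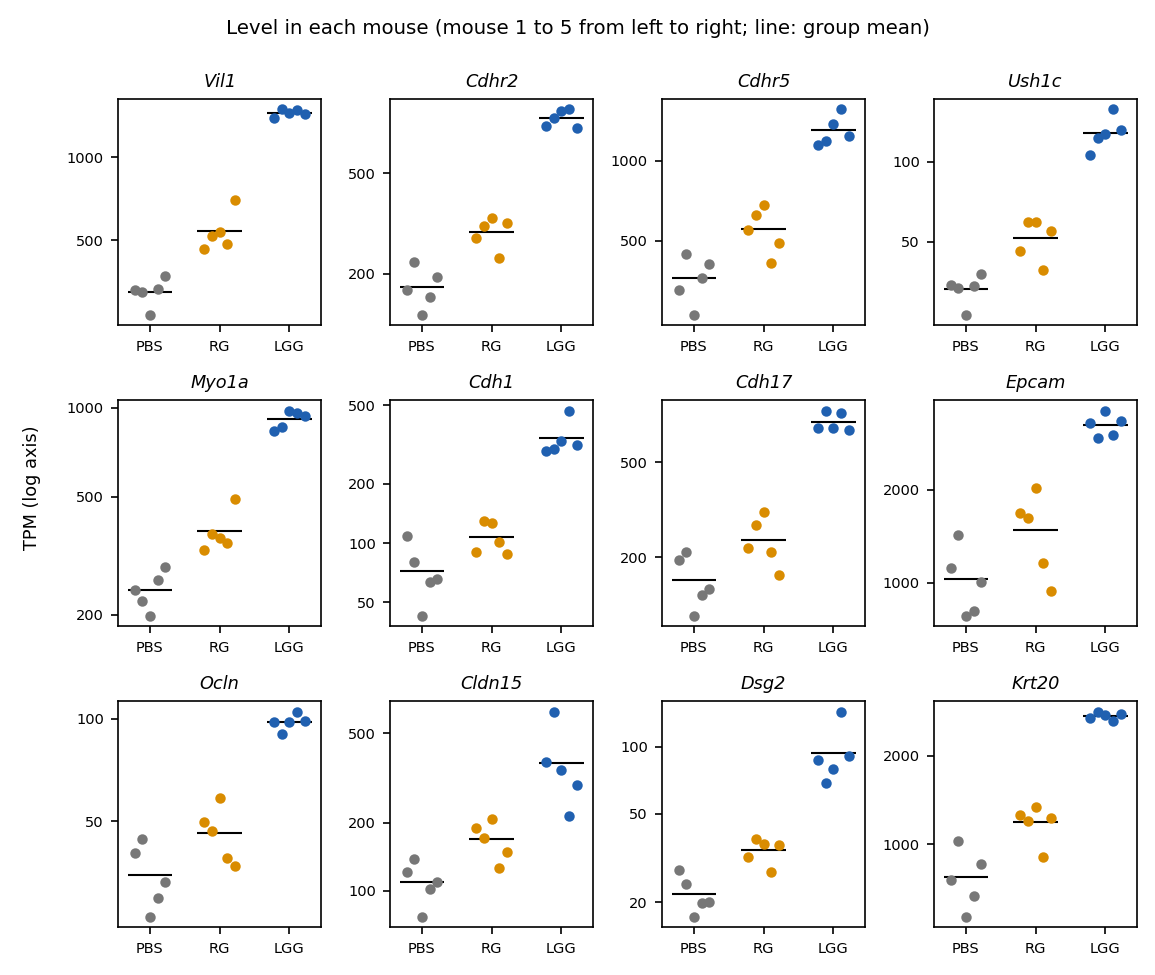
TPM of 12 members in each of the 15 mice, on a log axis, with mice 1 to 5 from left to right in each group and a line at the group mean. For Vil1, Cdhr2 and Ush1c the 3 groups do not overlap, whereas RG and PBS mice overlap for Cdh1, Cdh17, Epcam, Ocln, Cldn15 and Krt20.

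The myosins split by member. Of the 9 tested, 7 (77.8%) were higher in LGG and 3 (33.3%) in RG than in PBS mice, with none lower. The shares of all tested genes called higher were 54.7% and 22.8%. Median-of-ratios scaling left 6 higher and 1 (Myo9b) lower in LGG mice and none called in RG mice. Myo1a, the motor that links the actin core to the microvillar membrane, stood at 242, 222, 198, 262 and 289 TPM in PBS mice, 331, 375, 363, 350 and 492 TPM in RG mice and 837, 864, 979, 958 and 937 TPM in LGG mice. The groups were separate, with RG mouse 5 above its group. The differences were 1.92 and 0.65 (SE 0.135, limma adjusted p = 2.78e-08 and 0.0151).

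Myo7b, the motor of the tip-link complex, was higher by 1.79 in LGG mice (limma adjusted p = 4.78e-07) and by 0.53 in RG mice (adjusted p = 0.0479). Its RG values were 46.9, 34.4, 39.4, 46.1 and 81.1 TPM against 28.9 to 36.8 TPM in PBS mice, so that RG mouse 2 lay in the PBS range and RG mouse 5 far above the rest. Myo15b was alike in this respect, with 195 TPM in RG mouse 5 and 77.7 to 94.0 TPM in the other RG mice, and it passed in RG mice at an adjusted p of 0.0493 by limma. Myo1e, a membrane-binding class I myosin, was higher by 1.68 in LGG mice and had an adjusted p of 0.0737 in RG mice. Myo1d, Myo6 and Myo18a passed the threshold in LGG mice, by 1.83, 1.41 and 1.37, and their RG differences of 0.35 to 0.54 did not pass. All 3 were lower in RG than in LGG mice, with differences of -1.30, -0.99 and -1.02.

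All 7 tested genes of the adherens junction group were higher in LGG than in PBS mice, without overlap, and 4 of them (Cdh1, Cdh17, Ctnna1 and Ctnnd1) were higher in RG mice. Median-of-ratios scaling kept 6 of the 7 calls in LGG mice and none in RG mice. Cdh1 (E-cadherin, the adhesive receptor of the adherens junction) stood at 108, 79.9, 42.6, 63.3 and 65.4 TPM in PBS mice, 90.2, 129, 127, 101 and 87.5 TPM in RG mice and 293, 300, 329, 471 and 315 TPM in LGG mice. LGG mice lay far above both other groups, whereas PBS mouse 1 was higher than 3 of the RG mice. The difference was 2.28 in LGG mice (SE 0.214, limma adjusted p = 1.92e-07) and 0.61 in RG mice (adjusted p = 0.0465).

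Cdh17 (LI-cadherin, an intestinal cadherin on the lateral membrane) stood at 195, 211, 113, 138 and 147 TPM in PBS mice, 218, 272, 308, 210 and 168 TPM in RG mice and 695, 827, 700, 805 and 683 TPM in LGG mice. RG and PBS mice overlapped, and all LGG mice were above them. The differences were 2.23 and 0.55 (SE 0.185, limma adjusted p = 7.2e-08 and 0.0419). In LGG mice the catenins carried smaller differences than Cdh1 and Cdh17. Ctnnd1 (p120) differed by 1.82, Ctnna1 (alpha-catenin) by 1.72 and Ctnnb1 (beta-catenin, also the effector of Wnt signalling) by 1.38. In RG mice Ctnnb1 differed by 0.37 with an adjusted p of 0.0781 by limma. Ctnnbl1, which matches the catenin prefix, is a splicing-associated protein and was higher in LGG mice by 1.36.

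Epcam, an adhesion molecule of epithelial cells that marks the whole epithelium, stood at 1115, 1428, 780, 810 and 1002 TPM in PBS mice, 1676, 1624, 2024, 1157 and 937 TPM in RG mice and 3282, 2933, 3602, 2997 and 3339 TPM in LGG mice. LGG mice were above all others, and RG mice 4 and 5 lay among the PBS mice. The difference was 1.68 in LGG mice (SE 0.205, limma adjusted p = 1.66e-06) and 0.51 in RG mice (adjusted p = 0.064). After division of each library by its Epcam level, a setting chosen after the data were seen, 3 of the 54 other tested members were higher in LGG mice, Cdh1 by 0.60, Cdh17 by 0.55 and Cdhr2 by 0.55. On that scale 6 were lower, namely Itgb3bp, Itgb1bp1, Marveld1, Cldn5, Cldn10 and Myo9b, and the median was 0.02. Over all tested genes 0.963% were higher and 40.4% lower on that scale, and the median was -0.35. The ratio of Cdh17 to Epcam was 0.144 to 0.175 in PBS mice, 0.130 to 0.181 in RG mice and 0.194 to 0.282 in LGG mice. In RG mice no member was higher and 1, Itgb1bp1, was lower on that scale, against 0.085% and 16.0% of all tested genes.

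Tight-junction genes were mixed. Of the 9 tested, 6 (66.7%) were higher in LGG mice, without overlap, against 54.7% of all tested genes called higher. In RG mice 3 (33.3%), Marveld2 and Patj among them, were higher, against 22.8% of all tested genes. With median-of-ratios scaling the same number, 6, were higher in LGG mice and 3 (Marveld1, Cldn5 and Cldn10) turned to a lower call. None was then called in RG mice. Ocln (occludin, a barrier-regulating membrane protein) stood at 40.3, 44.3, 26.1, 29.8 and 33.2 TPM in PBS mice, 49.6, 46.9, 58.6, 38.9 and 37.0 TPM in RG mice and 97.7, 90.3, 97.8, 105 and 98.7 TPM in LGG mice. The LGG mice formed a narrow band above the rest, and RG mice 4 and 5 fell within the PBS range. The difference was 1.49 in LGG mice (SE 0.157, limma adjusted p = 4.46e-07) and 0.41 in RG mice (adjusted p = 0.0586).

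Cldn15, which forms cation-selective pores in the small intestine, stood at 121, 139, 76.4, 102 and 109 TPM in PBS mice, 189, 172, 209, 126 and 149 TPM in RG mice and 373, 623, 343, 215 and 296 TPM in LGG mice. LGG mouse 4 was the lowest and LGG mouse 2 the highest of its group, and RG mouse 4 lay within the PBS range. The differences were 1.68 and 0.62 (SE 0.238, limma adjusted p = 6.89e-06 and 0.0572). Marveld2 (tricellulin, found where 3 cells meet) was higher by 1.28 and 0.51, and Patj, a polarity scaffold, by 1.37 and 0.40. Cldn23 was higher in LGG mice by 1.46, whereas Cldn10 and Marveld1 had differences of -0.33 and -0.22 that did not pass.

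All 4 tested desmosome genes were higher in LGG mice without overlap, also under median-of-ratios scaling. In RG mice 3 were higher, and none under that scaling. Dsg2, the desmosomal cadherin of simple epithelia, stood at 27.8, 24.2, 17.1, 19.9 and 20.1 TPM in PBS mice, 31.8, 38.6, 36.6, 27.4 and 36.3 TPM in RG mice and 87.4, 68.6, 79.2, 144 and 90.9 TPM in LGG mice. RG mouse 4 was just under the highest PBS mouse, and LGG mouse 4 stood above its group. The differences were 2.03 and 0.63 (SE 0.185, limma adjusted p = 1.5e-07 and 0.0306). Its partner cadherin Dsc2 was higher by 1.82 and 0.57, and the plaque protein Pkp3 by 1.75 and 0.59. Pkp2, the other plakophilin tested, was higher by 1.25 in LGG mice and had an RG difference of 0.44 with a limma adjusted p of 0.0583.

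The keratins on which these plaques anchor were among the most abundant members. All 3 tested were higher in LGG mice, also under median-of-ratios scaling, and Krt8 and Krt20 were higher in RG mice, where that scaling left none called. Krt20, a keratin of mature surface enterocytes, stood at 751, 1022, 563, 667 and 855 TPM in PBS mice, 1258, 1196, 1339, 906 and 1227 TPM in RG mice and 2695, 2828, 2765, 2618 and 2778 TPM in LGG mice. The LGG values were close together, and RG mouse 4 lay within the PBS range. The differences were 1.85 and 0.64 (SE 0.155, limma adjusted p = 7.57e-08 and 0.024). Krt8, the main type II keratin of simple epithelia, was higher by 2.02 and 0.65. Krt19 was higher by 1.81 in LGG mice and differed by 0.51 in RG mice (limma adjusted p = 0.155). Its level in LGG mouse 4, 3230 TPM, was far above the 1592 to 2269 TPM of the other LGG mice.

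**Figure D3:**
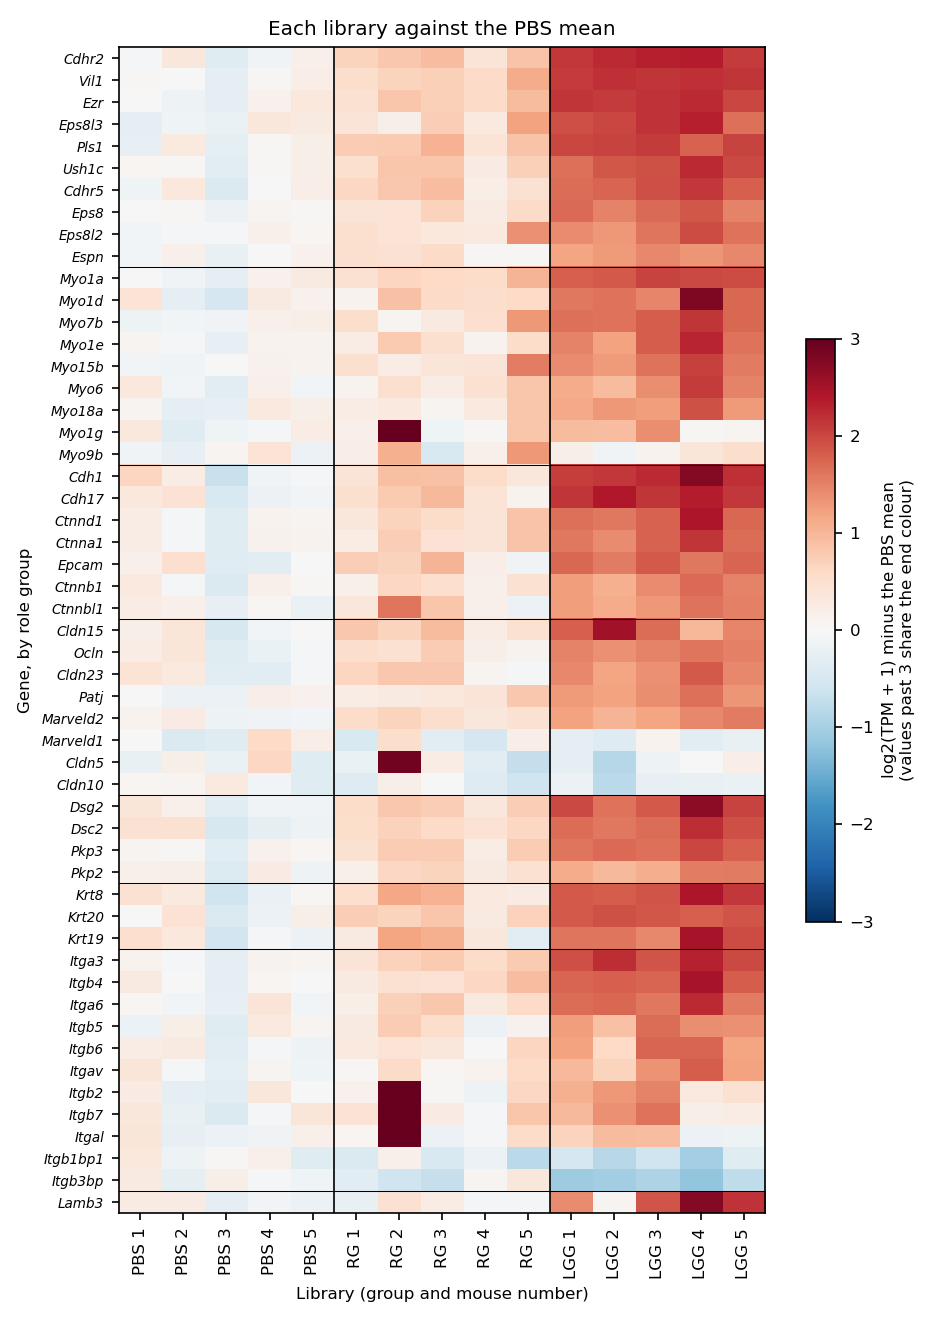
Each of the 15 libraries (columns) against the PBS mean on the log2(TPM + 1) scale for 53 of the 55 tested members, by role group, with red above and blue below the mean. PBS mouse 3 is the palest to blue column of its group, RG mouse 2 stands out for Itgb2, Itgb7, Itgal, Myo1g and Cldn5, and Itgb3bp and Itgb1bp1 are blue in all LGG mice.

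The integrins are receptors for the matrix and for other cells. Of the 11 tested, 6 (54.5%) were higher in LGG mice and 2 (18.2%) lower, near the 54.7% and 16.5% of all tested genes. In RG mice 3 (Itga3, Itga6 and Itgb4) were higher, or 27.3%, against 22.8% of all tested genes. Under median-of-ratios scaling 4 were higher and 2 lower in LGG mice, and none higher and 1 (Itgb1bp1) lower in RG mice. Itga3, the alpha chain of the laminin receptor alpha3beta1, stood at 19.5, 17.8, 14.9, 19.7 and 19.1 TPM in PBS mice, 23.9, 30.1, 31.7, 27.0 and 32.1 TPM in RG mice and 72.4, 87.8, 69.9, 94.3 and 74.5 TPM in LGG mice. The 3 groups did not overlap. The differences were 2.07 and 0.64 (SE 0.131, limma adjusted p = 1.55e-08 and 0.0139).

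Itga6 and Itgb4 together form the hemidesmosome integrin, which binds laminin 332. They were higher by 1.76 and 1.92 in LGG mice and by 0.51 and 0.54 in RG mice. Lamb3, a chain of laminin 332, was higher in LGG mice by 1.66 (limma adjusted p = 0.000439); under median-of-ratios scaling the difference was 0.68 and did not pass (adjusted p = 0.0581 by limma). Lamb3 stood at 34.0, 12.9, 47.6, 86.5 and 57.7 TPM in LGG mice against 9.91 to 14.6 TPM in PBS mice and 10.2 to 16.9 TPM in RG mice, so LGG mouse 2 lay within the PBS range while LGG mouse 4 was the highest. In RG mice Lamb3 differed by 0.07 (adjusted p = 0.875 by limma) and changed sign under other scalings.

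Itgb3bp and Itgb1bp1 match the integrin prefix but code for other proteins: Itgb3bp for a centromere component that also binds an integrin tail and Itgb1bp1 for ICAP-1, which binds the beta1 integrin tail inside the cell. Itgb3bp stood at 7.43, 4.83, 6.93, 5.66 and 5.36 TPM in PBS mice, 4.48, 3.58, 3.35, 6.38 and 7.76 TPM in RG mice and 2.35, 2.37, 2.68, 2.08 and 3.13 TPM in LGG mice. Every LGG mouse was below every PBS and RG mouse. The LGG difference was -0.99 (SE 0.202, limma adjusted p = 0.000257). Itgb1bp1 was at 14.6 to 24.0 TPM in PBS mice and 8.88 to 14.5 TPM in LGG mice, a difference of -0.67 (SE 0.187, limma adjusted p = 0.00392).

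Some integrins of leukocytes and a vascular claudin depended on 1 library; these were chosen after their values were seen. Itgal and Itgb2, which pair with each other, and Itgb7, which pairs with further chains on lymphocytes, stood at 14.1, 35.8 and 31.3 TPM in RG mouse 2 and at no more than 1.16, 3.43 and 3.04 TPM in the other RG mice. Myo1g, a myosin of leukocytes, stood at 22.9 TPM and Cldn5, a claudin of blood vessels, at 71.2 TPM in that mouse, against at most 2.17 and 10.4 TPM in the other RG mice. None of the 5 passed the threshold with all libraries in the fit. Their RG differences were 0.74, 0.86, 1.06, 0.93 and 0.38, and without RG mouse 2 they were 0.09, 0.16, 0.37, 0.22 and -0.25. Calls of LGG against PBS also moved without RG mouse 2, since the groups share 1 estimate of spread. Integrins called higher went from 6 to 8 and myosins from 7 to 8. Members called higher went from 45 to 48, and the share of all tested genes from 54.7% to 56.2%. The summed level of 7 leukocyte markers was 442 TPM in RG mouse 2, with 23.3 TPM the lowest among RG mice and 44.2 TPM their median; its part in these values was not tested.

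**Figure D4:**
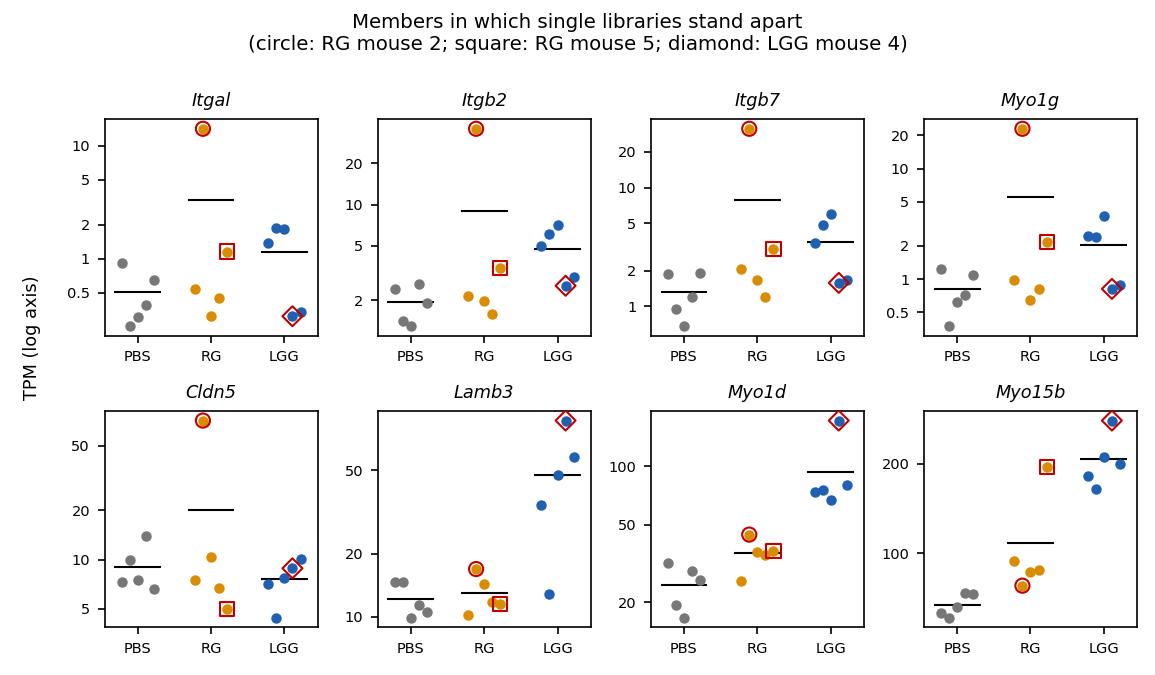
TPM on a log axis in each mouse for 8 members in which single libraries stand apart, with RG mouse 2, RG mouse 5 and LGG mouse 4 marked and a line at the group mean. RG mouse 2 alone carries the high values of Itgal, Itgb2, Itgb7, Myo1g and Cldn5, and LGG mouse 4 is the highest library for Lamb3, Myo1d and Myo15b.

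Libraries also differed within the groups in a way that runs across the members. LGG mouse 4 was the highest LGG library for 34 of the 55 members (61.8%, against 41.9% of all tested genes) and the lowest for 9 (16.4%, against 25.7%), Cldn15, Pls1 and Krt20 among them. It held 25134 TPM of Car1, a carbonic anhydrase of the colon, against 12.1 to 2549 TPM in the other LGG mice. PBS mouse 3 was the lowest PBS library for 42 of the 55 members (76.4%, against 51.1% of all tested genes). Summed TPM of 9 enterocyte markers ran from 991 to 1469 in PBS mice, 2140 to 2738 in RG mice and 5209 to 10070 in LGG mice, and the summed Paneth cell markers from 50459 to 65491, 49461 to 60973 and 981 to 12723. Their part in the members' differences was not tested. Without LGG mouse 4 the count of members in LGG against PBS stayed at 45 higher and 2 lower.

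The RG calls depended on single mice, over the members and over all tested genes. Without PBS mouse 3 the 27 members higher in RG mice became 5, without RG mouse 3 they became 7, without RG mouse 2 they became 8 and without PBS mouse 5 they became 9. Without RG mouse 4 they became 35. The share of all tested genes called higher, 22.8% with all mice, moved to 1.13%, 4.5%, 3.85%, 3.46% and 36.2% in these 5 fits, in the same order. Of 24 named members called in RG mice, 5 were called whichever library was left out: Vil1, Pls1, Ezr, Cdhr2 and Itga3. With RG mice 2 and 5 and PBS mouse 1 all left out, limma called none of the members and none of the 3530 genes tested. The unadjusted p was then under 0.05 for 31 members, all of them higher, and for 965 of all genes. The calls of LGG against PBS were the same in number, at 34 of 34 named members, whichever library was left out, and so were those of RG against LGG.

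The other 12 members were not tested because too few libraries reached 1 TPM. They were Cdh16, Cdh20, Cldn11, Cldn22, Cldn34c2, Dsc3, Dsg4, Itga2b, Itgad, Krt12, Krt31 and Krt79. Single libraries held their highest values, as for Dsc3, at 4.01 TPM in RG mouse 2 and at most 0.181 TPM elsewhere, and for Cldn11, at 4.56 TPM in RG mouse 2 and at most 0.501 TPM elsewhere. Krt12 stood at 5.89 TPM in RG mouse 5 and at most 1.23 TPM elsewhere.

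Genes of the same pathways that the name rule did not take were counted from fixed lists. These lists held 36, 38 and 29 symbols, of which 13, 14 and 5 were in the deposited table, and all of those were tested. Of 13 tested genes for other junction and polarity proteins, 11 were higher in LGG and 4 in RG mice; of 14 for other brush-border scaffold and terminal web proteins, 12 and 9; of 5 for other focal adhesion and basement membrane proteins, 4 and 2; none was lower. Of all tested genes 54.7% were called higher and 16.5% lower in LGG mice, and 22.8% and 4.08% in RG mice. Whether the lists differ from these shares was not tested. The list counts are for TPM as deposited, and counts under other scalings are not given here. The medians over all tested genes were 1.17 in LGG mice and 0.38 in RG mice. The lists' medians were 1.5, 1.68 and 1.26 in LGG mice and 0.48, 0.57 and 0.45 in RG mice. Among them Slc9a3r1 (NHERF1, the scaffold that binds ezrin) rose from 432 ± 84.6 TPM (SD, n = 5) in PBS mice to 1700 ± 207 TPM in LGG mice. Jup (plakoglobin) rose from 60.5 ± 12.8 TPM to 217 ± 35.3 TPM, and Anks4b, the harmonin partner, from 31.1 ± 4.68 TPM to 109 ± 11 TPM. The rule for naming genes covered members only, so these list genes were not picked by it. Not called in LGG mice were Slc9a3r2 (difference -0.05), Cgnl1 (-0.29), Tns1 (-0.41), Ildr1 (1.6) and Calml4.

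Calml4, a light chain of myosin 7B in the tip-link complex, did not follow its partners, and it was singled out after its values were seen. It stood at 581 ± 68.5 TPM (SD, n = 5) in PBS mice, 483 ± 152 TPM in RG mice and 424 ± 75.5 TPM in LGG mice. The LGG difference was -0.46 (limma adjusted p = 0.0552), and the ratio of Calml4 to Cdhr2 was 2.26 to 4.69 in PBS mice, 0.881 to 2.90 in RG mice and 0.336 to 0.603 in LGG mice. The difference was -1.5 with median-of-ratios scaling, 0.29 with the trend on length and GC content of the median-length transcript removed and 0.78 with that of the longest transcript removed, where length and GC content were removed together and not tested apart. Calml4 has 699 bases in its median-length protein-coding transcript, whereas the tested members had a median of 2806 bases and all tested genes 1582 bases. By the same measure Pls1 (612 bases) and Vil1 (744 bases), which were higher in LGG mice, and Itgb1bp1 (954 bases), which was lower, also had short transcripts. These lengths are of 1 transcript per gene, and a gene can have longer ones. Whether length bears on these differences was not tested.

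**Figure D5:**
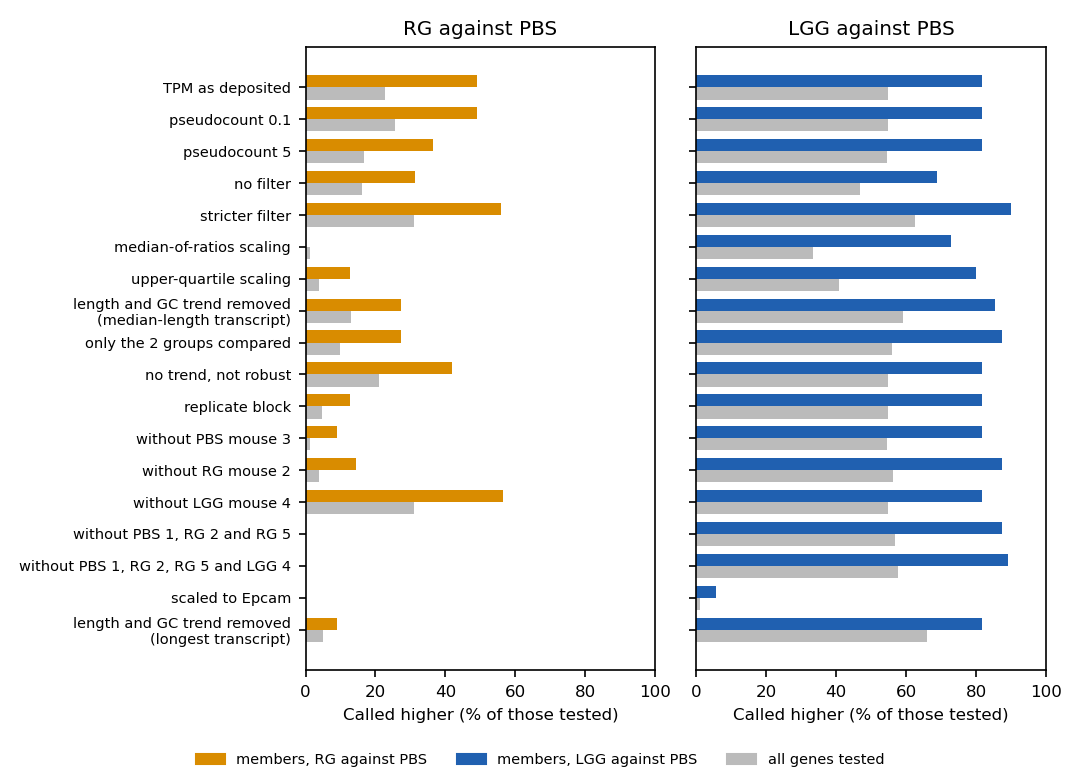
Share of tested members (coloured) and of all tested genes (grey) called higher than PBS under each setting, in RG mice (left) and LGG mice (right). In LGG mice the members' bar is 81.8% with TPM as deposited and short only after scaling to Epcam, whereas in RG mice it starts at 49.1% and is 0% under median-of-ratios scaling.

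Promoters are shown for a few members whose windows all hold letters searched for below. These windows do not stand for the members as a whole. The RefSeq table of GRCm38.p6 held 57 promoter windows for 44 of the 67 members, each taken here as the 250 bases before the start site. Both strands were searched for CACCTG (reverse CAGGTG), the E-box that SNAIL-type and ZEB-type repressors read at the E-cadherin gene, and for TTTATG (reverse CATAAA), core letters of the site of the intestinal CDX factors. The E-box was in 14 windows (24.6%), against 18.5% of windows of listed genes and 17.2% of all 32851 windows, and the CDX letters were in 8 (14.0%), against 7.45% and 10.8%. CAAAGTCCA, a site of HNF4, was in no member window and in 0.384% of all. These matches are a description of letters and no test of binding. In the sequences below, 5′ to 3′, capitals mark the E-box and CDX letters. The windows lie at chr7:141276787-141277036 (minus strand) for Cdhr5, chr7:46238491-46238740 (minus) for Ush1c, chr9:95845280-95845529 (minus) for Pls1, chr17:87635729-87635978 (plus) for Epcam and chr3:107876980-107877229 (plus) for Eps8l3.
Cdhr5: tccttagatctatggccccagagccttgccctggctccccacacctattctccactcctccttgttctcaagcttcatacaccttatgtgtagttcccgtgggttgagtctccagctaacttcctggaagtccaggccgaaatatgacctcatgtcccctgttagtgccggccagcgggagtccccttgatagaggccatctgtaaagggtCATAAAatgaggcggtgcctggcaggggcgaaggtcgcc
Ush1c: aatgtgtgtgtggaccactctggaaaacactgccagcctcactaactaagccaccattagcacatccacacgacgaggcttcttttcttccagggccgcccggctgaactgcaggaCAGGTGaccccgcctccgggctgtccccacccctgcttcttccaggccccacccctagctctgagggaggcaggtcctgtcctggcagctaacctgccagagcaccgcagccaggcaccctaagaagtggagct
Pls1: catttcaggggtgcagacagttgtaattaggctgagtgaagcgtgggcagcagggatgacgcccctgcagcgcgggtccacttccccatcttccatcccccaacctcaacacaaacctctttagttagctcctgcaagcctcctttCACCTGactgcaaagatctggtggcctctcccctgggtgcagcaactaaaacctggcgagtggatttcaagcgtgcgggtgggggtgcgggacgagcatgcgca
Epcam: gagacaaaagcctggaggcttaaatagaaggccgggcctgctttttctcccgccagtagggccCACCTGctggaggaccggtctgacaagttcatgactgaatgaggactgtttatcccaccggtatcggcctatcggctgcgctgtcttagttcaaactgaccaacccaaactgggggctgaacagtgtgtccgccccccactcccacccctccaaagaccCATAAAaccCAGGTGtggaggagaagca
Eps8l3: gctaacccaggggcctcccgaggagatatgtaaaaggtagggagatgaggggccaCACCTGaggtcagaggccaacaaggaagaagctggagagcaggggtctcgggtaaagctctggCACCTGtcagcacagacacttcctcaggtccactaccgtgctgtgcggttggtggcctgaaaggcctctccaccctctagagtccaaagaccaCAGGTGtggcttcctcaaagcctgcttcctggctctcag

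Cdhr5 carries the CDX letters close to its start site, Ush1c and Pls1 carry 1 E-box each, Eps8l3 carries 3 and Epcam carries 2 with the CDX letters between them. All 5 genes were higher in LGG mice, by 1.68 to 2.01, and Epcam was the 1 of the 5 not called in RG mice. Of the 55 tested members 45 were higher in LGG mice, with or without these letters. Windows of Krt12, Krt31 and Krt79, which were not tested for expression, also held the letters. Whether the letters bear on the differences was not tested.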

How the data were processed

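Ileum RNA from 15 mice (5 each given PBS, RG or LGG) was measured by RNA-seq. The authors deposited 1 table of TPM per gene and mouse; per the submitters' processing notes the build was GRCm38 (mm10), and no source used here names the aligner or counter. The listed genes held 48.0 to 66.1% of each library's 1000000 TPM; read depth is unknown, and how genes were chosen for the table is not stated. Mice are separate samples, so p-values measure the spread between mice.

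Values were tested on log2(TPM + 1) with limma 3.58.1 in R 4.3.3 (trend, robust), 15 libraries in 1 model, after a filter of 1 TPM in at least 5 libraries, two-sided, Benjamini-Hochberg over 3530 genes, threshold 0.05. The fit was tested on simulated data. Gene positions and lengths came from GENCODE M21. Named members were, in each comparison, the 3 of smallest p per role group, the 6 largest increases and decreases past the threshold, and a set of well-known genes. A few others are named as chosen after their values were seen. Also described, though this rule picked them in no comparison, are Myo1d, Myo6, Myo18a, Cldn23, Eps8l2, Ctnnbl1, Cldn10 and Marveld1. Of the tested members, 2 are counted in the totals and not reported one by one here. Members and lists were chosen with earlier results of these data known. Alternatives were other pseudocounts, filters, scalings, length and GC trends, fits of 2 groups, left-out libraries and a block for mouse number.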

Additional observations from a re-analysis of the deposited data

Results flagged for a closer look

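Of 108 groups of 5 mice examined for 36 named members, 10 (9.26%) had 1 mouse whose gap to its nearest neighbour was large against the whole range of its group. Chance alone gives about 1 in 20 groups when groups are independent. The 36 members share the same 15 libraries, so these groups are not independent and the share cannot be judged against that rate. RG mouse 5 was high for Myo15b (195 TPM, other RG mice 77.7 to 94.0), Myo1a (492 TPM, others 331 to 375), Myo7b (81.1 TPM, others 34.4 to 46.9) and Patj (14.1 TPM, others 9.10 to 10.3). LGG mouse 4 was high for Cdh1 (471 TPM, other LGG mice 293 to 329), Ctnnd1 (202 TPM, others 112 to 127), Itga6 (75.0 TPM, others 46.2 to 51.9) and Itgb4 (78.2 TPM, others 46.9 to 49.9). PBS mouse 3 was low for Eps8 (35.9 TPM, other PBS mice 41.3 to 43.4) and Pkp3 (19.9 TPM, others 25.4 to 27.6).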

How the results depend on the processing

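The 34 named members called in LGG against PBS were called in every fit that left out 1 library. The count of members higher in RG against PBS was 27 and ranged from 5 to 35 when 1 library was left out; it was 15 with the length and GC trend of the median-length transcript removed, 5 with that of the longest transcript removed (added after the first was seen), 15 with only the 2 groups compared, 7 with upper-quartile scaling (1 lower), 0 with median-of-ratios scaling (1 lower), 0 with RG mice 2 and 5 and PBS mouse 1 left out, 0 with LGG mouse 4 left out as well, and 0 after scaling to Epcam (1 lower); the last 2 were added after seeing the data. Over all tested genes the share called higher was 22.8% as deposited, 1.13% to 36.2% when 1 library was left out, and 13.0% and 4.85% with the trends of the median-length and the longest transcript removed. For why these counts moved, the cause was not tested, except that fewer mice were fitted where libraries were left out.

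In LGG against PBS, members lower numbered 2 as deposited, 1 with the stricter filter, 6 with median-of-ratios scaling, 5 with upper-quartile scaling, 4 with the median-length trend removed and 5 with the longest-transcript trend removed; scaled to Epcam 3 were higher and 6 lower. In RG against LGG, members higher numbered 1 as deposited, 0 with the stricter filter, 5 with median-of-ratios and 5 with upper-quartile scaling, where 32 and 30 were lower, 3 with either trend removed, and 1 to 2 with 1 library left out; scaled to Epcam 5 were higher and 1 lower.

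The mouse numbers do not pair the mice. For this check each gene's group mean was subtracted from its log2 values. What remained correlated between -0.455 and 0.288 over 15 pairs of same-numbered mice, and 1 library correlated best with its own number. With the replicate block 7 members were higher in RG against PBS and 45 in LGG against PBS, against 4.67% and 54.7% of all tested genes.

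Over all members, 51 of 55 differences were above 0 in RG against PBS as deposited, 46 with median-of-ratios scaling, 49 without RG mouse 2 and 33 of 54 scaled to Epcam; in LGG against PBS 50 were above 0 as deposited and 28 scaled to Epcam. The genes that follow are only those among the members named by the rule. The sign in RG against PBS turned for Espn (-0.04) and Lamb3 (-0.27) with median-of-ratios scaling, and for Lamb3 with upper-quartile scaling (-0.18), the median-length trend removed (-0.25), the longest-transcript trend removed (-0.22) and, with 1 library left out (range -0.02 to 0.15), without RG mouse 2. Scaled to Epcam, RG against PBS was negative for Ctnnb1 (-0.14), Eps8 (-0.04), Espn (-0.19), Krt19 (-0.01), Lamb3 (-0.41), Ocln (-0.09), Patj (-0.06) and Pkp2 (-0.04). LGG against PBS was negative for Ctnnb1 (-0.30), Eps8 (-0.02), Espn (-0.33), Marveld2 (-0.31), Ocln (-0.16), Patj (-0.19) and Pkp2 (-0.35). RG against LGG was positive for Cldn15 (0.11), Ctnnb1 (0.16), Espn (0.14), Marveld2 (0.35), Ocln (0.07), Patj (0.13) and Pkp2 (0.31). Read depth is unknown, so its limit on low members cannot be given.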
